A study of Mus musculus with 18 samples.

Results

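Genes of MHC class I and class II antigen presentation were followed across lung metastases of a mouse mammary carcinoma that grew with or without transferred natural killer (NK) cells. The set is a fixed list of 31 genes among the 49585 gene identifiers of the count table, with 20 on the class I side and 11 on the class II side. All 31 passed the filter on low counts and were tested. The tumour was AT3, a cell line from a mammary carcinoma driven by the polyoma middle T antigen, labelled with GFP and mCherry. It was placed in the mammary fat pad of mice whose strain is labelled Rag2-/-IL2rg-/-, whereas the growth protocol names Rag1-/-IL2rg-/-. Every host carried that genotype, which leaves a mouse without T, B and NK cells of its own. On day 11 the hosts received by vein either PBS (labelled Ctrl) or 60000 murine NK cells activated in vitro (labelled NK transferred), and neither the age of the mice nor the time of harvest was used here. Lesions that had spread to the lung were cut out of frozen sections by laser on the basis of their fluorescence. The lesions with NK cells numbered 7 from 2 mice, 3 from mouse NK1 and 4 from mouse NK2, and those of controls 11 from 3 mice, 5 from KO1, 4 from KO2 and 2 from KO3. A lesion is written as mouse and number, so NK1-3 is lesion 3 of mouse NK1, and the numbers have no order. The mouse, not the lesion, was the replicate.

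Class I molecules show peptides from inside the cell. The proteasome, in its immune form with the subunits Psmb8, Psmb9 and Psmb10, cuts proteins, the pump Tap1/Tap2 moves the peptides into the endoplasmic reticulum, and tapasin (Tapbp) helps load them on a heavy chain such as H2-K1 or H2-D1 paired with beta-2 microglobulin (B2m). NK cells read class I through inhibitory receptors, and interferon gamma, which NK cells secrete, raises class I genes through factors such as IRF1 and the transactivator Nlrc5. Class II molecules show peptides from endosomes, mainly on dendritic cells, macrophages and B cells, and in the lung also on alveolar type II cells. The chains H2-Aa, H2-Ab1 and H2-Eb1 are guarded by the invariant chain Cd74, which cathepsin S (Ctss) trims before H2-DM swaps in the peptide, and Ciita switches the group on.

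The promoters of the heavy chains searched, except that of H2-T23, share a short core given below. In RefSeq (GRCm38.p6), windows ran from 250 bases before to 50 bases after a start site. They were searched for 17 of the 20 class I and 8 of the 11 class II genes. Tap2, Tapbpl and Nlrc5 on the class I side were not searched. H2-Ab1, Cd74 and Ciita on the class II side were not searched either, so the motif counts say nothing of them. The interferon-response motif AANNGAAA, searched on both strands, was present in 11 of the 17 and in 4 of the 8, and in 23.9% of all 32851 promoters of that length. The 8 windows below, each 30 bases and 5′ to 3′ on the strand of the gene, are shown because 7 of them share the core TTTCACTT, which is that motif read on the opposite strand. The capitals mark the match.
H2-K1, chr17:34000419-34000448, minus strand: catctccacagTTTCACTTctgcacctaac
H2-D1, chr17:35262933-35262962, plus strand: catctcctcagTTTCACTTctgcacctaac
H2-Q4, chr17:35379453-35379482, plus strand: catctccccagTTTCACTTctgctcctaac
H2-Q6, chr17:35424687-35424716, plus strand: catctccccagTTTCACTTctgctcctaac
H2-Q7, chr17:35439031-35439060, plus strand: catctccccagTTTCACTTctgctcctaac
H2-T22, chr17:36042915-36042944, minus strand: aattggcttagTTTCACTTtcgaatcccca
H2-M3, chr17:37270122-37270151, plus strand: ttcctctgaggTTTCACTTctctgtaactc
B2m, chr2:122147539-122147568, plus strand: taagaacatgaAACTGAAAatgggaaagtc
The windows of H2-Q4, H2-Q6 and H2-Q7 are identical letter for letter. The core TTTCACTT was present, on either strand, in 8 of the 17 class I genes, the other being the peptide-trimming enzyme Erap1. It was present in 0 of the 8 class II genes and in 1.6% of all promoters. This core was taken from the match in H2-K1, so H2-K1 holds it by construction. The count is a description of related promoters. The interferon-gamma-activated sequence TTCNNNGAA was present in 2 of 17 class I and 1 of 8 class II genes (8.3% of all promoters), and the NF-kB motif GGGNNTTCC in 5 of 17 and 2 of 8 (5.82%).

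Class II promoters are known for an X box and a Y box at a set distance, where RFX and NF-Y bind and Ciita docks. An X1 core GNAAC followed on the same strand by a Y box ATTGG, with 15 to 35 bases between them, was present in 5 of 8 class II genes, in 0 of 17 class I genes and in 3.51% of all promoters, both strands searched. These letters were shortened after the promoters of the set had been read, so the count is a description. The X1 core and the Y box are in capitals.
H2-Aa, chr17:34287863-34287908, minus strand: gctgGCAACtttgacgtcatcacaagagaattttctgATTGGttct
H2-Eb1, chr17:34305772-34305816, plus strand: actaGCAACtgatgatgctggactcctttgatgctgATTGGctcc
H2-DMb1, chr17:34153093-34153138, plus strand: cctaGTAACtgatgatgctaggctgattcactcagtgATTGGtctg
H2-Oa, chr17:34092299-34092344, plus strand: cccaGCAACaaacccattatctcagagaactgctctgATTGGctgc
H2-Ob, chr17:34238814-34238856, plus strand: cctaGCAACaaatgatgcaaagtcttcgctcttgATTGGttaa
The genes with this pattern include H2-Aa and H2-Eb1, which were abundant in the lesions, and H2-Oa and H2-Ob, which were nearly absent, as the values below show.

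Total counts were 2964242 to 11798897 per lesion with NK cells and 5690467 to 9816244 in controls. The mitochondrial ribosomal RNA mt-Rnr2 took over 40% of the counts in 6 lesions: the 3 of mouse NK1 (47.6% to 65.3%) and the control lesions KO1-2, KO1-5 and KO3-2, against 13.7% to 22.8% in mouse NK2. NK1-3 was the shallowest library. Values are CPM, counts scaled to a common library size with TMM factors. Since whole lesions were captured, fewer cells of a type and less RNA per cell cannot be told apart.

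With NK cells, 0 of the 20 class I and 0 of the 11 class II genes differed from control in the quasi-likelihood test of edgeR with Benjamini-Hochberg adjustment over the 16917 genes tested, which called 0.0% of them (adjusted p = 0.9998 for H2-DMa, the smallest unadjusted p in the set). At an unadjusted p under 0.05 there were 0 class I genes and 1 class II gene, H2-DMa, where edgeR gave 2.52% of all genes. DESeq2 called 0 of the 31 and 0.149% of 26158 genes. The median log2 fold change of the class I genes was 0.26 (range -0.59 to 0.78, 15 of 20 positive), that of the class II genes 0.41 (range -0.75 to 1.53, 8 of 11 positive), and that of all genes tested -0.03, with 48.3% positive. Both NK mice lay above every control mouse for 4 class I genes (H2-Q4, H2-T22, H2-M3 and Psmb8) and 1 class II gene (H2-DMa), which is the order of 7.94% of all genes. Without lesion NK1-3, a comparison chosen after seeing the data, it was the order of 3 class I genes (H2-T22, H2-M3 and Psmb8), 0 class II genes and 8.81% of all genes. Both lay below every control mouse for 0 of the 31, the order of 6.86% of all genes. The class II median rested on mouse NK2: it was -0.66 without NK2 and 0.92 without NK1, whereas the class I median stayed between 0.13 and 0.50 whichever mouse was left out. Without the 6 lesions rich in mt-Rnr2, chosen after seeing the data and holding all of NK1, the medians were 0.40 for class I and 0.78 for class II.

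**Figure D1:**
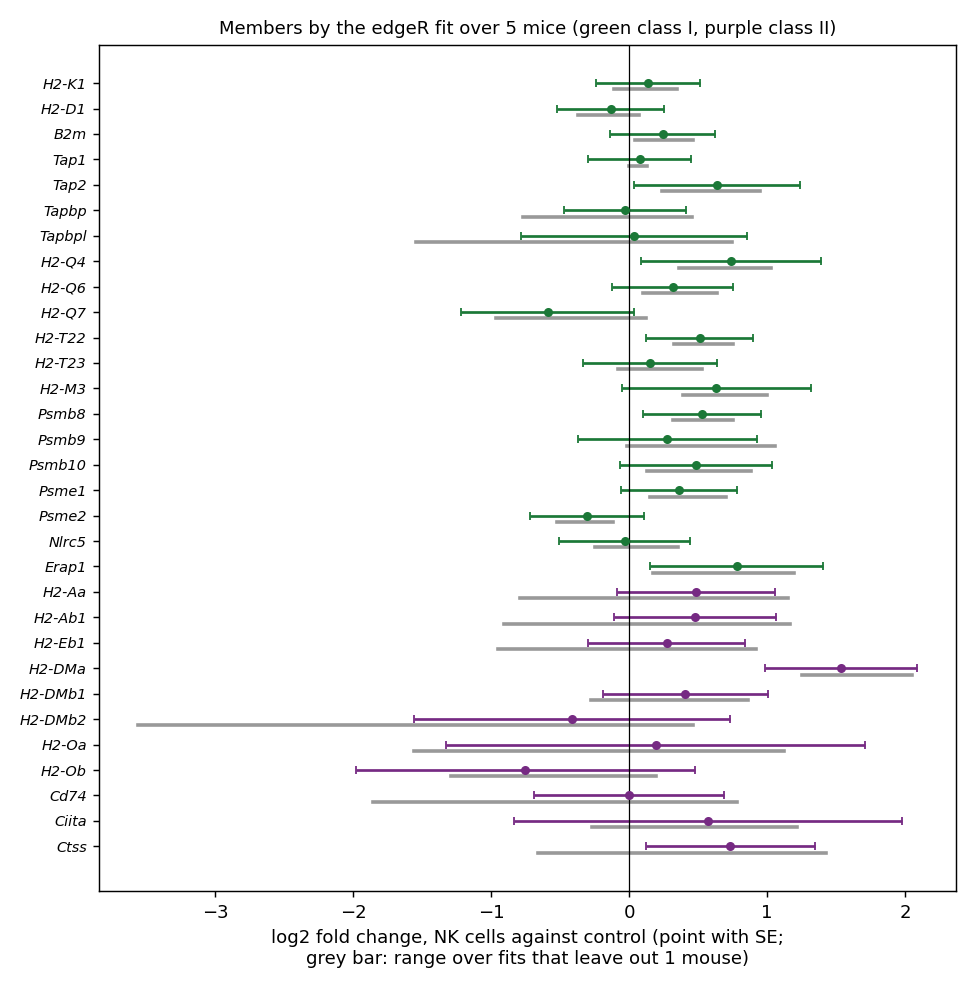
Log2 fold change of each gene, NK cells against control, from edgeR over 5 mice (points, with SE as whiskers), class I in green and class II in purple. The grey bars give the range when 1 mouse is left out, and those of Cd74 and H2-DMb2 reach far below 0 whereas that of H2-DMa stays above it.

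The classical heavy chains were abundant in every lesion and did not separate the treatments. H2-K1 (chromosome 17, 33996017 to 34000347) had 314.0, 164.3 and 842.9 CPM in the lesions of NK1 and 325.6, 287.8, 185.3 and 185.0 CPM in those of NK2. The 11 control lesions had 156.5 to 427.7 CPM with a median of 222.5. The groups overlapped throughout except for lesion NK1-3, which lay above all others, and the mean over mice was 298.3 ± 65.4 CPM (SD, n = 2) against 271.6 ± 55.8 CPM in controls (n = 3). The log2 fold change was 0.14 ± 0.38 (SE), and -0.09 without the lesions rich in mt-Rnr2.

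H2-D1, the other classical heavy chain (chromosome 17, 35262730 to 35267499), had 211.1 to 308.3 CPM (median 286.1) with NK cells and 187.8 to 603.6 CPM (median 249.3) in controls. Here the high lesion was a control, KO3-2, which was also highest for H2-Q7 and for Psme2 but lowest for 6 other class I genes. The log2 fold change was -0.14 ± 0.39. B2m, the light chain that every class I molecule needs (chromosome 2, 122147686 to 122153083), had 159.6 to 300.6 CPM (median 216.8) with NK cells and 95.7 to 256.8 CPM (median 163.6) in controls. It varied less between lesions than the heavy chain H2-K1, with an SD within mice of 0.279 log2 units against 0.592, and its log2 fold change was 0.24 ± 0.38.

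**Figure D2:**
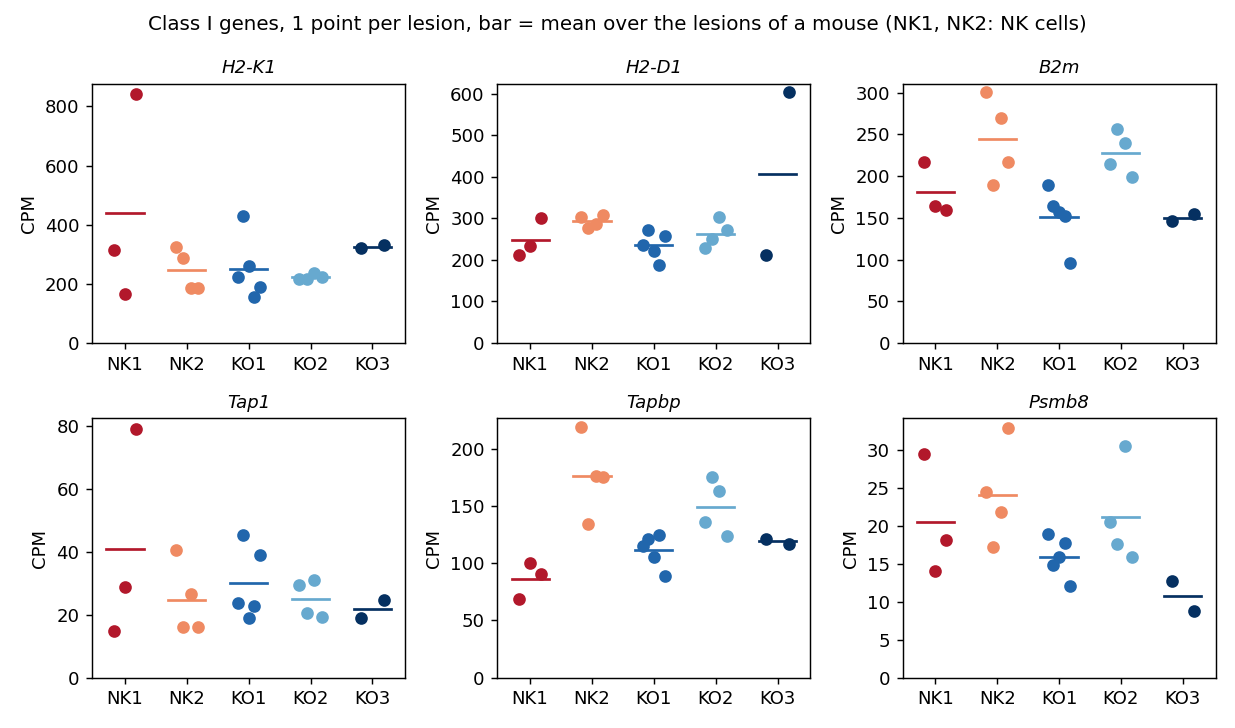
CPM of 6 class I genes in each lesion by mouse, with a bar at the mean over the lesions of a mouse. Lesion NK1-3 stands apart for H2-K1 (842.9 CPM) and Tap1 (79.1 CPM) and KO3-2 for H2-D1 (603.6 CPM), while B2m lies between 95.7 and 300.6 CPM.

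Among the nonclassical heavy chains, H2-T23 encodes Qa-1, the ligand of the NK cell receptor pair CD94/NKG2A. It had 4.80 to 35.01 CPM (median 13.7) with NK cells and 4.04 to 27.4 CPM (median 12.98) in controls, and the groups overlapped over nearly their whole range (log2 fold change 0.15 ± 0.49). H2-T22, which gamma delta T cells can recognise, was among the genes with both NK mice on top, at 68.5 CPM in NK1 and 61.4 CPM in NK2 against 44.2, 59.6 and 32.8 CPM in KO1, KO2 and KO3. Single lesions overlapped all the same, from 20.3 to 90.9 CPM with NK cells and from 30.1 to 66.8 CPM in controls, and the log2 fold change was 0.51 ± 0.39 (unadjusted p = 0.225 in edgeR).

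H2-Q4 was nearly equal in the NK mice, 9.501 CPM in NK1 and 9.486 CPM in NK2, and lower in KO1 (7.07), KO2 (7.74) and KO3 (2.174). The lesions of NK1 had 8.74, 2.80 and 25.9 CPM, the last in NK1-3, without which NK1 was at 7.33 CPM and below KO2. The log2 fold change was 0.74 ± 0.65. H2-M3, which presents formylated peptides of bacteria and mitochondria, had 2.80 to 6.09 CPM with NK cells and 1.15 to 4.99 CPM in controls (0.63 ± 0.68). H2-Q6 and H2-Q7, of the Qa-2 family, had log2 fold changes of 0.31 ± 0.44 and -0.59 ± 0.63, and H2-Q6 spanned 4.40 to 111.4 CPM among control lesions alone. The H2 heavy chains have near-identical copies, between which the authors' counting could split reads, so the value of any single copy is uncertain.

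No gene of the peptide pump or the loading complex was called, in a fit that called 0.0% of all genes. With 2 mice against 3, this does not show that the groups were equal. Tap1 (chromosome 17, 34187553 to 34197225) had 14.7, 28.8 and 79.1 CPM in NK1, 16.1 to 40.4 CPM in NK2 and 18.8 to 45.2 CPM in controls. Summed over lesions the 5 mice lay within 21.7 to 26.5 CPM, so that the spread of Tap1 was among lesions of a mouse (SD 0.648 log2 units) more than between mice (0.228). Its partner Tap2 had 5.15 to 16.5 CPM with NK cells and 1.85 to 13.1 CPM in controls (log2 fold change 0.64 ± 0.60). These CPM are not scaled by gene length, so they do not rank Tap1 and Tap2.

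Tapbp was lowest in NK1 and highest in NK2 of all mice, at 78.0 and 182.3 CPM, with the controls at 117.2, 158.3 and 123.9 CPM. The treatments therefore averaged out (-0.03 ± 0.45), and the value turned to 0.43 without the mt-Rnr2-rich lesions. Its relative Tapbpl, an editor of class I peptides, had the same order at lower levels, 1.14 CPM in NK1 and 5.599 CPM in NK2 against 3.04 to 3.64 CPM in controls (0.03 ± 0.82). NK1 lowest and NK2 highest was the order of 2 class I genes of 20 and of 5.67% of all genes. Erap1, which trims peptides in the endoplasmic reticulum, had 10.7 CPM in NK1, 21.9 CPM in NK2 and 3.83 to 13.2 CPM in control mice (0.78 ± 0.63).

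Of the immunoproteasome, Psmb8 was higher in both NK mice (23.8 and 25.5 CPM) than in KO1 (17.5), KO2 (22.01) and KO3 (11.7), although lesions overlapped at 13.99 to 32.95 CPM against 8.81 to 30.5 CPM. Its log2 fold change was 0.53 ± 0.43 (unadjusted p = 0.252 in edgeR). Psmb9 gave 0.28 ± 0.65 and Psmb10 0.48 ± 0.55, with Psmb9 from 0.898 to 27.3 CPM over the 18 lesions. The activator subunits Psme1 and Psme2, which cap the proteasome and form 1 complex, had values of opposite sign, 0.36 ± 0.42 and -0.31 ± 0.41.

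Each inducible subunit takes the place of a constitutive one, so their ratio within a library does not depend on library scaling. Per length of the union of exons, the log2 ratio of Psmb8 to Psmb5 was below 0 in all 18 lesions (-4.06 to -1.48, median -2.47), and so was that of Psmb9 to Psmb6 (-4.11 to -0.81, median -2.52). That of Psmb10 to Psmb7 was below 0 in 15 of 18 lesions (median -0.82). With the median transcript length the medians were -1.26, -1.64 and -0.48, and 1 lesion crossed 0 for Psmb9. The ratio of Psmb8 to Psmb5 was -2.14 in NK1, -2.42 in NK2 and -3.28 to -2.37 in the control mice, and for Psmb9 to Psmb6 the treatments averaged -2.48 ± 0.09 (SD, n = 2) and -2.50 ± 0.39 (n = 3).

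Nlrc5, the transactivator of class I genes (chromosome 8, 94434356 to 94527272), varied the most of the class I genes among lesions of a mouse, with an SD of 1.13 log2 units. It had 14.1, 11.2 and 70.7 CPM in NK1, 30.1, 16.9, 12.3 and 4.02 CPM in NK2, and 5.93 to 58.3 CPM (median 11.9) in controls. The highest lesions were NK1-3, KO1-2 (58.3 CPM), KO1-5 (44.5 CPM) and KO3-2 (33.4 CPM), all rich in mt-Rnr2, but NK1-1 and NK1-2, which were also over 40%, lay near the control median. The log2 fold change was -0.03 ± 0.47. NK1-3 was the highest of all 18 lesions for 6 class I genes, H2-K1, Tap1, H2-Q4, H2-T23, Psmb9 and Nlrc5, and the lowest for H2-T22 and Erap1. Over all genes tested it was the highest for 15.1% and the lowest, with no tie, for 19.3%, and for 12.8% it was the highest of the 7 lesions with NK cells and apart from the others by Dixon's test. Without it, class I genes with a positive value numbered 12 of 20, and the median was 0.18. NK1-3 held 1204 counts of H2-K1. It also had the highest summed CPM of the airway epithelium markers, 24130 against 8.96 to 15950 in the other lesions, led by Scgb1a1. The part of depth, RNA quality or airway tissue in the values of NK1-3 was not tested.

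On the class II side, the mice with NK cells were the opposite ends of the range. NK1 was lowest and NK2 highest of all 5 mice for 6 of 11 genes, H2-Aa, H2-Ab1, H2-Eb1, H2-DMb1, Cd74 and Ctss, an order found in 5.67% of all genes. H2-Oa had the reverse order. Without lesion NK1-3, a comparison chosen after seeing the data, NK1 was no longer lowest for Ctss and H2-DMb1. It then lay above KO1, at 43.9 against 39.8 CPM for Ctss and 5.58 against 5.04 CPM for H2-DMb1. The order stayed for H2-Aa, H2-Ab1, H2-Eb1 and Cd74, and its share of all genes without NK1-3 was not computed. Class II genes are known to be switched on together, so the 6 are not independent of each other.

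H2-Aa, the alpha chain of I-A (chromosome 17, 34282744 to 34287823), had 38.7, 38.8 and 18.9 CPM in the lesions of NK1 and 102.6, 101.9, 169.8 and 147.3 CPM in those of NK2. Controls had 19.7 to 102.9 CPM with a median of 63.4. Every NK2 lesion was thus over 2 times every NK1 lesion, and the controls filled the space between. Averaged over mice, H2-Aa had 85.7 ± 71.3 CPM (SD, n = 2) under NK transfer against 61.3 ± 19.7 CPM in controls (n = 3), and the log2 fold change was 0.49 ± 0.57. It was -0.79 without NK2 and 1.15 without NK1.

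H2-Ab1, the beta chain of I-A (chromosome 17, 34257689 to 34269419), had 14.7, 15.6 and 7.70 CPM in NK1, 38.9, 41.0, 69.5 and 69.3 CPM in NK2 and 7.64 to 33.8 CPM in controls. All 4 NK2 lesions lay above all 11 controls, and the NK1 lesions lay among the lower controls. The ratio of H2-Ab1 to H2-Aa was -0.80 log2 units per exon length in NK1, -0.68 in NK2 and -0.93 to -0.36 in control mice, and single lesions ranged from -1.23 to 0.43. H2-Eb1, the beta chain of I-E (chromosome 17, 34305867 to 34316674), had 18.4 to 30.8 CPM in NK1, 64.8 to 86.3 CPM in NK2 and 13.5 to 65.7 CPM in controls (log2 fold change 0.27 ± 0.57).

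Cd74, the invariant chain, set the NK mice far apart. It had 38.9, 80.3 and 29.4 CPM in NK1, 254.1, 316.0, 285.9 and 268.3 CPM in NK2, and 76.4 to 238.5 CPM (median 150.1) in controls. All NK2 lesions lay above all controls, and NK1-1 and NK1-3 below all controls, so that the treatments averaged to 169.1 ± 173.0 CPM (n = 2) and 169.9 ± 50.2 CPM (n = 3). The log2 fold change was -0.01 ± 0.69, with -1.86 without NK2 and 0.78 without NK1. Lesions of a mouse resembled each other for Cd74, with an SD of 0.417 log2 units within mice and 0.990 between mice.

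Ctss, the cathepsin that trims Cd74 (chromosome 3, 95526786 to 95556403), had 35.8, 59.2 and 11.2 CPM in NK1, 92.9, 105.9, 210.0 and 194.7 CPM in NK2 and 5.39 to 102.6 CPM in controls. Again NK2 lay above the controls in 3 of 4 lesions, and the log2 fold change was 0.73 ± 0.61. H2-DMb1, a chain of the peptide exchanger, had 4.56 CPM in NK1, 10.04 CPM in NK2 and 4.87 to 6.67 CPM in control mice (0.41 ± 0.60). It had 0 counts in NK1-3 and 1 count in KO3-2.

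**Figure D3:**
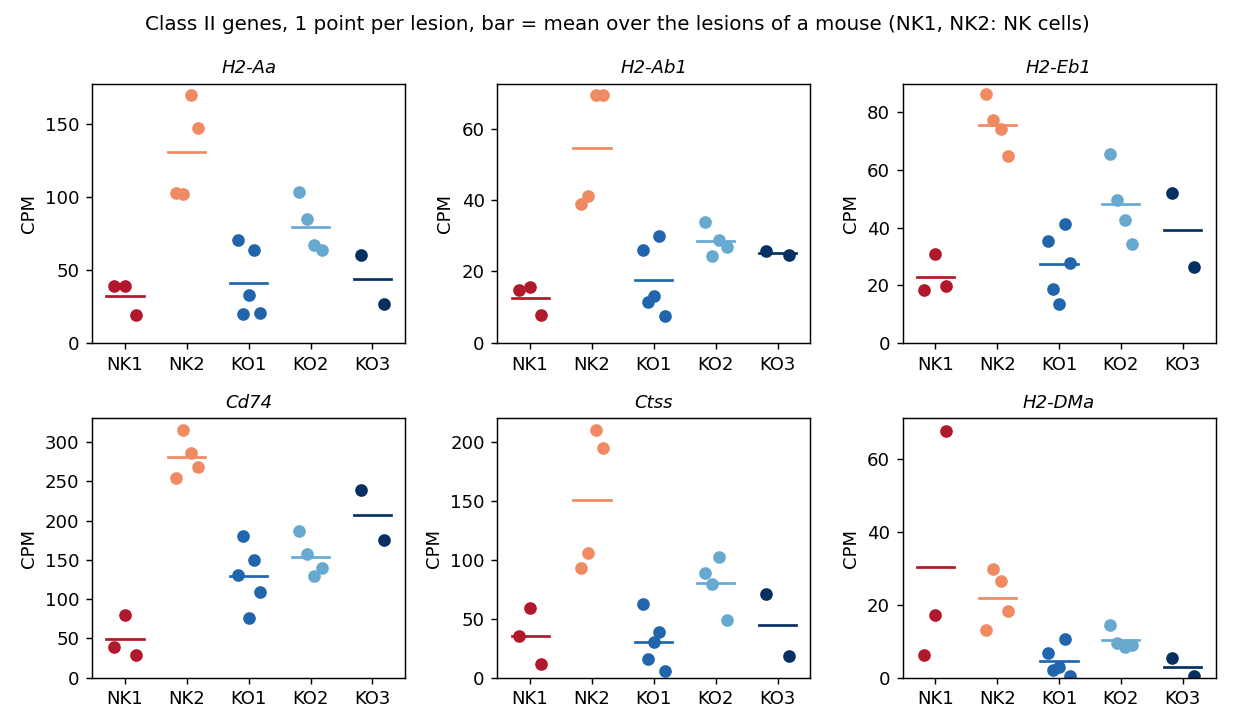
CPM of 6 class II genes in each lesion by mouse, with a bar at the mean over the lesions of a mouse. For H2-Aa, H2-Ab1, H2-Eb1, Cd74 and Ctss the NK2 lesions are at the top and the NK1 lesions low, whereas H2-DMa is high in NK1-3 (67.9 CPM) and in NK2 (13 to 29.8 CPM).

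H2-DMa, the other chain of the exchanger H2-DM (chromosome 17, 34119541 to 34139101), did not follow this order, and both NK mice lay above every control mouse, though only with lesion NK1-3. It had 6.25, 17.2 and 67.9 CPM in NK1, 13, 29.8, 26.4 and 18.4 CPM in NK2 and 0.449 to 14.5 CPM (median 6.81) in controls. Of the 7 lesions with NK cells, 5 lay above every control, and the others were within the control range. The mice averaged 19.9 ± 3.91 CPM (n = 2) against 6.84 ± 3.68 CPM (n = 3), and the log2 fold change of 1.53 ± 0.55 had an unadjusted p of 0.0241 in edgeR (adjusted p = 0.9998). It stayed between 1.24 and 2.13 when any mouse or lesion was left out, with 1.24 without NK1-3. Without that lesion NK1 was at 9.66 CPM and below KO2, at 10.95 CPM in the same fit.

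The fold change of H2-DMa is uncertain for another reason. Its locus overlaps the chromatin reader gene Brd2 on the opposite strand by 3094 bases, it is not known whether strand was used in counting, and Brd2 had 14920 counts against 2199 for H2-DMa. Brd2 itself had 73.7 to 136.5 CPM with NK cells and 62.7 to 140.1 CPM in controls, so its groups overlapped. The part of Brd2 reads in the H2-DMa values was not tested. KO1-5, the highest lesion for Brd2 at 140.1 CPM, had 1 count of H2-DMa. NK1-3, the highest lesion for H2-DMa, had 97 counts of it, 136.5 CPM of Brd2, and 0 counts of the partner H2-DMb1. Other class II genes were low in that lesion, which was the lowest of all 18 for H2-Aa and Cd74 and had 0 counts of H2-DMb2, H2-Oa and Ciita. Tap1 and Psmb9 likewise overlap on opposite strands, by 212 bases. Further loci overlap other genes, among them Ciita with Dexi (opposite strand, 25888 bases, 1220 counts of Dexi against 229 of Ciita). Tapbp overlaps Zbtb22 (same strand, 3422 bases, 2079 counts of Zbtb22 against 23902). Tapbpl overlaps Vamp1 (opposite strand, 7928 bases, 282 counts of Vamp1 against 646). The part of such reads in these values was not tested.

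The remaining class II genes were near the limit of detection. H2-DMb2, a further H2-DM beta chain, had 419 counts over all lesions, with 0.190 CPM in NK1, 3.16 CPM in NK2 and 1.39 to 3.73 CPM in control mice (log2 fold change -0.42 ± 1.15). H2-Oa and H2-Ob, the chains of H2-O that restrains H2-DM and is typical of B cells, had 25 and 275 counts. Their log2 fold changes were 0.19 ± 1.52 and -0.75 ± 1.23, and KO2-2 and KO3-1 held 97 and 61 of the counts of H2-Ob. Ciita, the class II transactivator, had 229 counts, of which 117 came from lesions with NK cells, and 0 in NK1-3, KO1-5, KO3-1 and KO3-2. Its log2 fold change was 0.57 ± 1.41, with 0.760 CPM in NK1 and 1.94 CPM in NK2.

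Compared per length of the union of exons, B2m was the most abundant class I transcript at a median of 220 CPM per kilobase over lesions, before H2-D1 (102.8) and H2-K1 (78.3). On the class II side Cd74 led with 91.6 CPM per kilobase, followed by Ctss (44.9), H2-Eb1 (19.8) and H2-Aa (16.7), while Ciita, H2-Ob and H2-Oa were at 0.0934, 0.0795 and 0.0558. The order at the top depends on the length used. With the median transcript length, H2-D1 exceeded B2m in all 18 lesions (log2 ratio 0.57 to 2.58), in place of a median ratio of -1.12. Cd74 exceeded H2-Aa in every lesion per exon length (log2 ratio 1.18 to 4.37) and in all but NK1-1 per transcript length.

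The classes differed in where their variation lay. The median SD of log2(CPM + 1) among lesions of a mouse was 0.604 for class I and 0.531 for class II genes, and that between mouse means was 0.427 for class I and 0.752 for class II. Over all genes tested the medians were 0.683 within and 0.477 between mice. The class II values between mice were carried by H2-DMa (1.29), Ctss (1.06), Cd74 (0.990) and H2-Aa (0.853), while Psmb10 (0.935) was the highest on the class I side. These are descriptions of 5 mice, and no test of the difference between the classes was made.

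**Figure D4:**
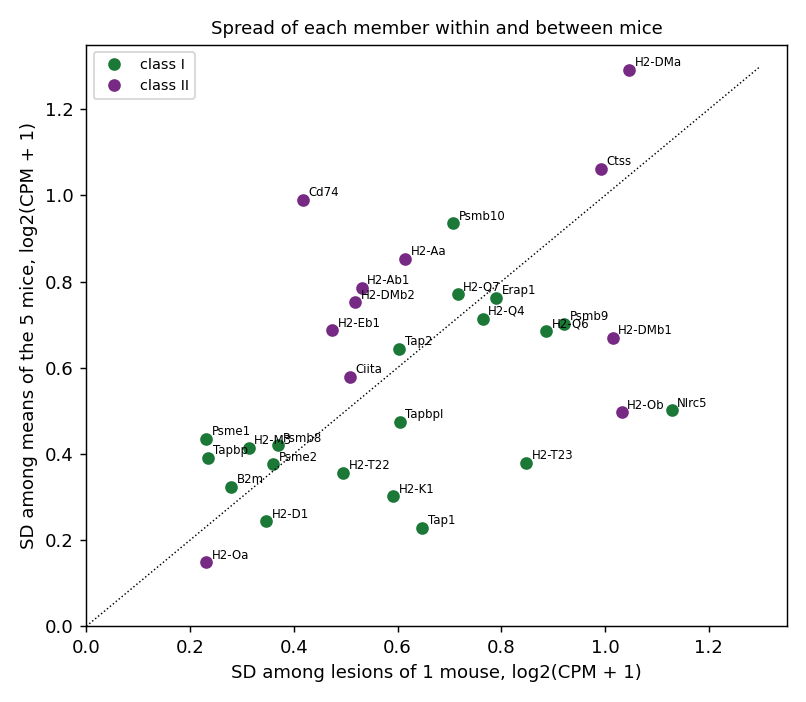
SD of each gene among lesions of a mouse (x axis) and among the means of the 5 mice (y axis), both of log2(CPM + 1). Genes above the dotted line of equality vary more between mice, as Cd74 does (0.417 and 0.990), and Nlrc5 varies more within them (1.13 and 0.501).

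Other genes of the pathways, from lists chosen beside the set, gave 0 calls in edgeR, each beside the 0.0% of all genes. They gave 1 gene with an unadjusted p under 0.05 in edgeR, beside 2.52% of all genes. That gene was Cd1d1, which presents lipids to NKT cells, with a log2 fold change of 1.90 ± 0.70 (p = 0.0273 in edgeR, 4.88 ± 0.0891 against 1.303 ± 0.205 CPM), and it was named after its values were seen. Cd1d1 had 50, 2 and 0 counts in the lesions of NK1, and NK2-4 held 164 counts. By lesion it had 7.81, 0.80 and 0 CPM in NK1, 1.92 to 9.69 CPM in NK2 and 0 to 1.85 CPM in controls. It was among 10 tested genes of further class I-like molecules (median -0.68), whose most abundant by the mean over mice were the Fc receptor Fcgrt (0.60 ± 0.42), the iron regulator Hfe (-0.85 ± 0.51) and Mr1 (1.03 ± 0.89), which presents vitamin metabolites. By the mean over lesions H2-Q10 (-0.60 ± 0.97) came before Mr1. The 10 tested genes of the reticulum's folding and loading machinery had a median of 0.25, with P4hb at 0.22 ± 0.39, Canx at 0.33 ± 0.39 and Hspa5 at 0.29 ± 0.38. The 18 constitutive proteasome genes had a median of 0.10, with Psmb4, Psma1 and Psmb7 the most abundant (0.04 ± 0.40, 0.58 ± 0.45 and 0.00 ± 0.54), Psmb5 at -0.02 ± 0.55 and Psmb6 at 0.32 ± 0.53. Among 19 further class II genes, proteases and the factors that bind the X and Y boxes, the median was 0.09. Ctsd gave 0.55 ± 0.42, Ctsb 0.10 ± 0.42, Ctsl 0.14 ± 0.45, the reductase Ifi30 0.04 ± 0.49 and the X box factor Rfx5 -0.17 ± 0.67.

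Genes of interferon gamma signalling had the highest median of these lists, 0.72 over 17 tested genes, with 11 positive. Ifng itself had 4 counts in 3 lesions of NK2 and 1 count in a control, and it was not tested. Cxcl9, a chemokine that interferon gamma induces, had 282 counts in NK2-1, 28, 58 and 30 in the other NK2 lesions, 1 in all of NK1 and 34 in all controls. Its log2 fold change was 3.45 ± 1.89 (unadjusted p = 0.106 in edgeR). NK2-1 was also the highest lesion for B2m, Tap2, Tapbp and H2-Eb1, and the share of all genes highest there was not computed. It had the highest mean log2(CPM + 1) of the class I genes (5.28, against 4.11 to 5.14 in the other lesions). In summed CPM the class I genes were highest in NK1-3 instead (1892, against 1640 in NK2-1). A link of these values with Cxcl9 was not tested. The transcription factor Irf1 gave -0.12 ± 0.43, and the receptor and kinase Ifngr1 and Jak1 gave -0.46 ± 0.42 and -0.09 ± 0.35.

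Markers of cells that carry class II were set beside the class II genes by lesion, and no correlation was computed. The mean log2(CPM + 1) of the 11 class II genes was 2.52 to 3.21 in NK1, 3.98 to 4.45 in NK2 and 2.19 to 4.02 in controls. Macrophage and monocyte markers (17 of 17 tested, Adgre1 and Csf1r in every lesion) were 4.49, 4.09 and 2.88 in NK1, 4.35 to 4.85 in NK2 and 3.50 to 4.69 in controls. Their summed CPM was 636.4 to 4454 with NK cells and 1222 to 3502 in controls. Dendritic cell markers (15 of 15 tested, Flt3 at 0 in 2 lesions and Zbtb46 in none) were 1.65 to 2.12 in NK1, 2.03 to 2.77 in NK2 and 1.70 to 2.86 in controls, and their summed CPM was 118.7 to 628.0 and 177.9 to 342.0. On the mean log2 scale both lists, like the class II genes, were lowest in NK1-3 among the lesions with NK cells, whereas in summed CPM the dendritic list was highest of all 18 lesions there (628.0). NK1-1 and NK1-2 had macrophage markers within the control range, and NK1-1 (4.49) lay above NK2-1 (4.35) and NK2-2 (4.46).

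**Figure D5:**
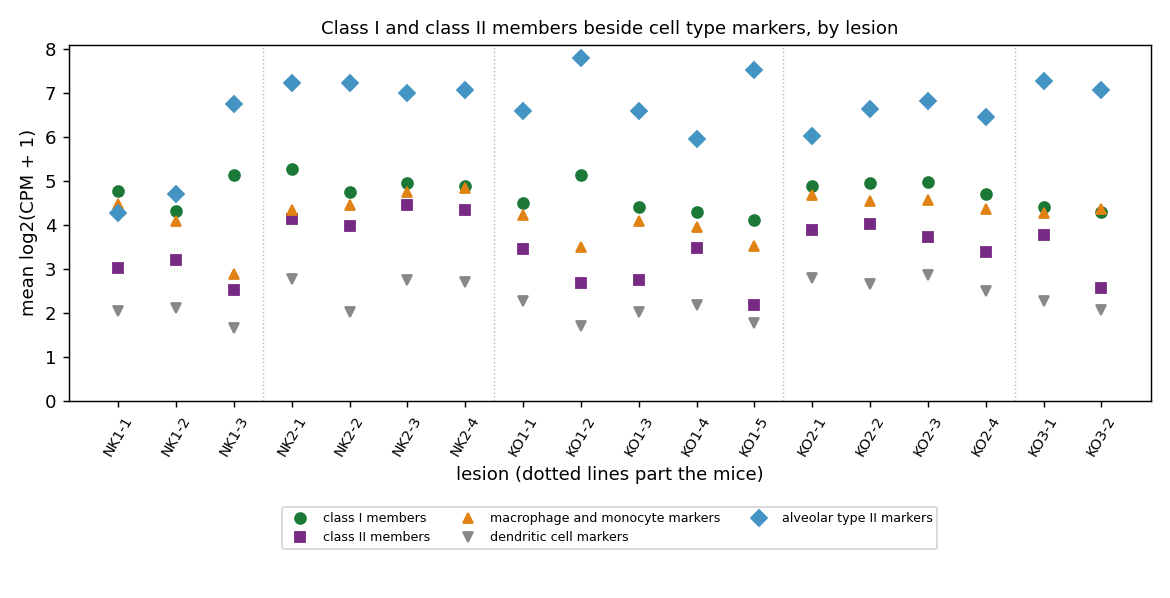
Mean log2(CPM + 1) of the class I genes, the class II genes and markers of macrophages and monocytes, dendritic cells and alveolar type II cells, 1 point per lesion. Class II genes (squares) are at 3.98 to 4.45 in NK2 and 2.52 to 3.21 in NK1, and alveolar type II markers are lowest in NK1-1 (4.27) and NK1-2 (4.71).

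B cell markers were low, with 2 of 8 tested, Cd79a at 9 and 6 counts and Cd79b at 64 and 106 counts in the NK and control lesions, Cd79b at 0 in 2 lesions, and a summed CPM of 0.468 to 4.40 with NK cells and 0 to 4.61 in controls. T cell markers (2 of 8 tested, Cd3e at 0 and Cd3d at 8 counts) summed to at most 9.68 CPM. Alveolar type II markers (9 of 9 tested, led by Sftpc and Sftpb, 0 in no lesion) were 4.27, 4.71 and 6.75 in NK1, 7.01 to 7.23 in NK2 and 5.96 to 7.80 in controls, with summed CPM of 289.5 to 2996 and 890.9 to 4040. Endothelial markers (12 of 12 tested, Cdh5 in every lesion, Pecam1 at 0 in 1) were 1.82 to 2.00 in NK1 and 3.21 to 4.96 in all other lesions, with summed CPM of 48.6 to 347.9 and 151.8 to 505.9. In NK1-1 and NK1-2 the endothelial and alveolar markers were thus low on both scales, beside the low class II genes. NK1-3 was low only in the mean log2 value of the endothelial list (336.0 summed CPM). Controls low in class II differed from this: KO1-5, KO1-2 and KO3-2 had class II means of 2.19, 2.69 and 2.57. Their alveolar means were 7.54, 7.80 and 7.08, and their endothelial means 3.21, 3.69 and 4.48. The part of these markers in the class II values was not tested. NK cell markers (11 of 13 tested) summed to 4.90 to 81.5 CPM with NK cells and 0.898 to 10.2 CPM in controls, with Ncr1 at 175 and 5 counts and Klrb1c at 75 and 9. Airway (Scgb1a1, Scgb3a1), neutrophil (S100a8, S100a9) and fibroblast (Col1a1, Col1a2) lists gave 0 calls and medians of 0.50, -2.93 and 1.28. Genes within a list differed, and of the fibroblast genes 7 were positive and 2 negative. Col1a1 had 14.25 and 11.89 CPM in NK1 and NK2, and 39.29, 5.701 and 6.434 CPM in KO1, KO2 and KO3. Col1a2 had 82.2 and 91.5 CPM, and 171.2, 56.1 and 16.1 CPM, in the same order.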

How the data were processed

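The authors prepared libraries from 2 ng of RNA per lesion with a kit for single cells, per the labels' protocols. The build was mm10 and the tools included STAR, RSEM 1.2.28, bcl2fastq 2.17 and DESeq2, per the submitters' processing notes. Whether counting used strand is not given in the sources. The deposited table holds expected counts as RSEM estimates them, unscaled, and these were rounded. Another deposited table, of log2 values by their range, was normalized by the authors and served as an alternative. There were 0 further columns of sample values.

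Counts were summed over the lesions of a mouse and compared with edgeR 4.0.16 (R 4.3.3; TMM, robust quasi-likelihood F test, Benjamini-Hochberg, threshold 0.05). The filter filterByExpr (minimum count 10, minimum total 15) kept 16917 of 26158 genes with a count. The SE is the log2 fold change divided by the square root of F. The labels do not say whether the hosts were littermates, and p-values rest on 2 mice against 3. The script was tested on simulated data. DESeq2 1.42.0 and limma 3.58.1 gave alternatives. Symbols matched 49326 of 49585 identifiers, and coordinates are 1-based from GENCODE M21 (GRCm38). No pair of lesions within a mouse was as alike as sampling noise allows (lowest chi-square per degree of freedom 23.8).

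The genes and lists were chosen with earlier results of these data known. The text names all 31 genes, the 3 most abundant of each pathway list by the mean CPM over mice, Psmb5, Psmb6, Psmb7, Irf1, Cxcl9, Rfx5, Ifi30 and Ifng, and the first 2 markers of each cell type list. A gene that this rule also names is not reported here.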

Additional observations from a re-analysis of the deposited data

Results flagged for a closer look

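Among the 7 lesions with NK cells, lesion NK1-3 was further from the others than Dixon's test at 95% allows for 5 of the 31 genes. Over all genes tested it was apart in this way, as the highest, for 12.8%. For independent values chance gives about 1 in 20 over all 7 lesions and both ends. That rate does not apply to a given lesion as the highest, and these lesions come from 2 mice. H2-K1 had 842.9 CPM there and 325.6 CPM in the next lesion. Tap1 had 79.1 CPM against 40.4 CPM, H2-Q4 had 25.9 against 12.5 CPM, Nlrc5 had 70.7 against 30.1 CPM, and H2-DMa had 67.9 against 29.8 CPM. NK1-3 was the shallowest library, and the cause was not tested.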

How the results depend on the processing

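No gene of the set was called in any setting tried. With the mice left out singly, 27 of 155 values changed sign, with lesions left out singly 35 of 558, and under the other alternatives 18 of 246. The class II median ranged from -0.66 to 0.92 when a mouse or lesion was left out, and was 0.19 in the authors' normalized table. With both kinds left out in turn, log2 fold changes ranged from -0.11 to 0.34 for H2-K1, -0.55 to 0.14 for H2-D1, -0.14 to 0.61 for Tap1, -0.77 to 0.45 for Tapbp, -1.54 to 0.75 for Tapbpl, -0.97 to 0.12 for H2-Q7, -0.13 to 0.53 for H2-T23, -0.016 to 1.06 for Psmb9 and -0.34 to 0.42 for Nlrc5. On the class II side they ranged from -0.79 to 1.15 for H2-Aa, -0.91 to 1.16 for H2-Ab1, -0.95 to 0.92 for H2-Eb1, -0.28 to 0.86 for H2-DMb1, -3.56 to 0.46 for H2-DMb2, -1.56 to 1.18 for H2-Oa, -1.47 to 0.70 for H2-Ob, -1.86 to 0.78 for Cd74, -0.27 to 1.22 for Ciita and -0.66 to 1.42 for Ctss.

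Without the 6 lesions over 40% mt-Rnr2, chosen after seeing the data, sign changed for H2-K1 (-0.091), H2-D1 (0.33), Tapbp (0.43), Psme2 (0.081), Nlrc5 (0.041), H2-DMb2 (0.40), H2-Oa (-1.97) and Cd74 (0.71). That setting removes mouse NK1, and the lone NK mouse is assumed to vary like the others. With the mouse as a random block over lesions it changed for H2-D1 (0.035), Tap1 (-0.041), Tapbp (0.053), Nlrc5 (0.007) and H2-Ob (0.77), with equal weight of lesions for Nlrc5 (0.18) and H2-Oa (-0.017), in the authors' normalized table for Tapbpl (-0.0073) and H2-Ob (0.14), and with no filter for Cd74 (0.024). With a filter of 10 counts in 9 lesions, H2-Oa and H2-Ob gave no value. No paired analysis was possible because the labels name no litter or batch by which mice of the treatments could be paired. The day of injection was the same for all, and lesion numbers only name lesions within a mouse. The causes were not tested.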
